A study of Ictalurus furcatus with 6 samples.

Results

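Haemoglobin and erythroid genes were followed in the RNA of cryopreserved and fresh-frozen testicular sperm from blue catfish (*Ictalurus furcatus*). The set was made of 8 gene names that were looked up in the deposited expression table: *LOC108257036*, *LOC108257040*, *HBB*, *alas2*, *slc4a1a*, *epor*, *gata1a* and *klf1*. A row of that name was found for 6 of them, out of 27416 features in all, and no row carries the names *slc4a1a* or *klf1*. The names were selected on the measured CPM values of cryopreserved against fresh-frozen sperm, so that difference is described here for the 6 genes and is not tested.

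All samples are sperm of mature males of the D&B strain, taken from dissected testes that were washed in a balanced salt solution. No step that removes blood cells is described in the methods. The cryopreserved samples C2, C3 and C5 came from sperm cells extracted from the testis tissue that remained after the fresh-frozen samples were taken. That sperm received a diluent and methanol and was then frozen inside straws by a controlled-rate freezer. The methods name no such extraction for the fresh-frozen samples, so this step cannot be told apart from cryopreservation here. The fresh-frozen samples F2 and F3 were flash-frozen in liquid nitrogen with no cryoprotectant named, and both kinds of sample were thawed in the same way before RNA extraction. The number is the ID of the male, so C2 and F2 came from male 2 and C3 and F3 from male 3. C5 has no partner here, because the paper sequenced F5 but excluded it for a low mapping rate to the blue catfish genome. C2 has 2 technical replicates that were averaged into 1 sample, which leaves 3 cryopreserved and 2 fresh-frozen samples.

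Haemoglobin is a tetramer of alpha-type and beta-type globin chains, each of which carries a heme group that binds oxygen. Red blood cells of fish keep their nucleus, and globin transcripts are among their most abundant mRNAs. Erythroid cells are set up by the transcription factors GATA1 and KLF1 and by signalling through the erythropoietin receptor, and ALAS2 starts heme synthesis in these cells.

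The deposited values were treated as CPM, reads scaled to a common library total, since each column sums to between 992942 and 997458. Low values lay at whole multiples of 1 step in F2 only, and no feature is listed at 0 in C2 or C3. Values outside F2 are thus not shown to be plain scaled reads. The libraries differed in ways that reach beyond these genes. The median feature had 9.60 and 9.55 CPM in the technical replicates of C2, 15.0 CPM in C3 and 2.03 CPM in C5, against 15.7 CPM in F2 and 15.6 CPM in F3. C5 listed 2664 features at 0, against at most 566 in any other column. Relative to fresh-frozen sperm, the median difference over the 27255 features that exceeded a mean of 1 CPM in cryopreserved or fresh-frozen sperm was -1.02 on the log2(CPM + 1) scale. It became -0.16 after TMM rescaling and -0.22 after quantile normalization, so each log2 difference below can be read against these shifts. The paper lists filtered reads for each sample, with fewer in C2, C3 and C5 than in F2 and F3. These are not the reads counted on features, which set the precision of a value. In F2 the step of 0.362 CPM is taken as 1 counted read, and counted depth was not recovered for the other samples. How counted depth compares between samples is therefore not known. In bulk RNA a change in the number of cells of a type cannot be told apart from a change in RNA per cell.

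The largest differences among the 6 genes were those of *LOC108257036*, *LOC108257040* and *HBB*. The table describes *HBB* as a haemoglobin subunit. It gives no description for the others, which are kept under their identifiers with no role assigned. *LOC108257036* (AUIFUG00000010281) had 30166 and 30270 CPM in the technical replicates of C2, 4675 CPM in C3 and 2379 CPM in C5, against 218 CPM in F2 and 53.4 CPM in F3. All cryopreserved samples lay above F2 and F3, and the feature had a higher CPM than any other in C2 and in C3. *LOC108257040* (AUIFUG00000010371) had 16296 and 16386 CPM in the replicates of C2, 2765 CPM in C3 and 2009 CPM in C5, against 137 CPM in F2 and 49.7 CPM in F3. This feature ranked second by CPM in C2 and in C3, and its groups did not overlap either. *HBB* (AUIFUG00000034633) had 2525 and 2540 CPM in the replicates of C2, 390 CPM in C3 and 91.5 CPM in C5, against 16.8 CPM in F2 and 7.41 CPM in F3. Again C2 was highest, F3 was lowest and the groups did not overlap.

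The mean of *LOC108257036* was 12424 ± 15453 CPM (SD, n = 3) in cryopreserved sperm and 136 ± 116 CPM (SD, n = 2) in fresh-frozen sperm. *LOC108257040* averaged 7038 ± 8065 CPM (SD, n = 3) in cryopreserved sperm and 93.2 ± 61.5 CPM (SD, n = 2) in fresh-frozen sperm. *HBB* averaged 1005 ± 1331 CPM (SD, n = 3) in cryopreserved sperm and 12.1 ± 6.62 CPM (SD, n = 2) in fresh-frozen sperm. In each the SD exceeded the cryopreserved mean, because C2 was far above C3 and C5. The differences of the group means on the log2(CPM + 1) scale were 5.99 for *LOC108257036*, 5.75 for *LOC108257040* and 5.20 for *HBB*. Without C2 they were 4.93, 4.82 and 3.96, so that a large difference stayed in C3 and C5, and without C5 they were 6.77, 6.33 and 6.35.

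Males 2 and 3 each gave both kinds of sample. Within male 2, CPM values were 139-fold higher in C2 than in F2 for *LOC108257036*, 120-fold for *LOC108257040* and 151-fold for *HBB*. Within male 3, C3 was above F3 by 87.5-fold, 55.6-fold and 52.6-fold in the same order. The fresh-frozen samples differed between these males as well, with F2 above F3 by 4.08-fold, 2.75-fold and 2.26-fold. Male 2 thus had the higher value of these features in both kinds of sample. In cryopreserved sperm C2 exceeded C3 by 6.46-fold, 5.91-fold and 6.50-fold. The technical replicates of C2 differed by 0.346% of their mean in *LOC108257036*, 0.545% in *LOC108257040* and 0.615% in *HBB*, where the median over 1863 features above 100 CPM in C2 was 6.68%. That median was 15.9% over 13349 features above 10 CPM, so it falls as the level rises. The features ranked 1, 2 and 7 by CPM in C2, so this comparison is not at a like level.

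**Figure D1:**
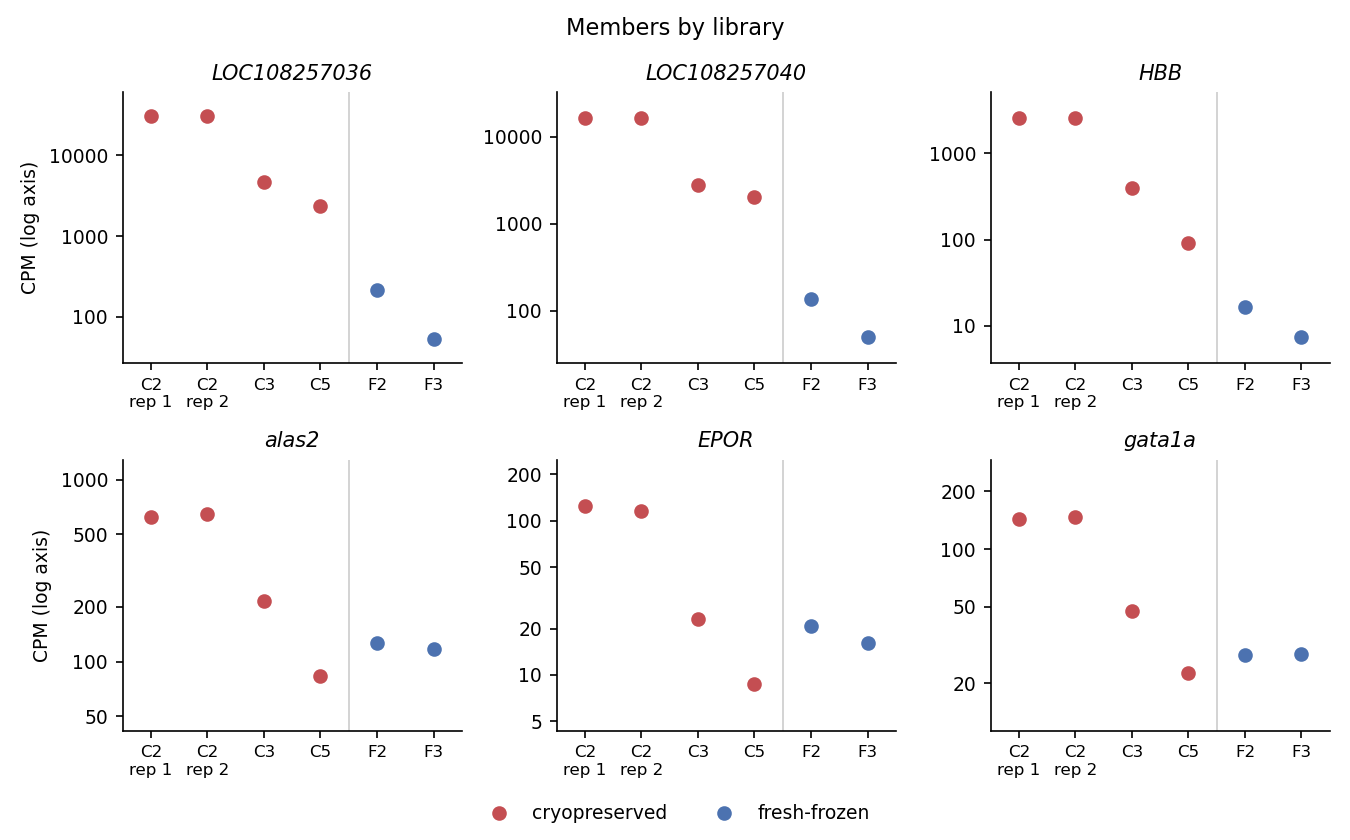
CPM of each of the 6 genes on a log axis, with 1 point for each library and the technical replicates of C2 shown apart. In the upper row all cryopreserved libraries (red, left) lie above both fresh-frozen libraries (blue, right), while in the lower row C5 lies below both.

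Summed, the 3 features made up 4.91% and 4.93% of the column total in the technical replicates of C2, 0.789% of C3 and 0.449% of C5, against 0.0373% of F2 and 0.0111% of F3. Their removal from the totals therefore changed the scale of the other genes little. After rescaling to the totals without them, the difference of the sum was 5.91 in place of 5.88 on the log2(CPM + 1) scale. The make-up of the sum was alike in 3 of the 5 samples. The CPM ratio of *LOC108257040* to *LOC108257036* was 0.541 for C2, 0.591 for C3 and 0.844 for C5, against 0.627 for F2 and 0.930 for F3. The ratio of *HBB* to *LOC108257036* was 0.0838 for C2, 0.0834 for C3 and 0.0385 for C5, against 0.0770 for F2 and 0.139 for F3. C2, C3 and F2 were thus close to each other in both ratios although their sums spanned 49091 to 371 CPM, whereas C5 and F3 departed from them. In F3 the ratio rests on 7.41 CPM of *HBB*, and the counting error of these ratios is unknown. CPM values are not divided by transcript length, so a ratio can be compared between libraries but does not give the proportion of transcripts.

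**Figure D2:**
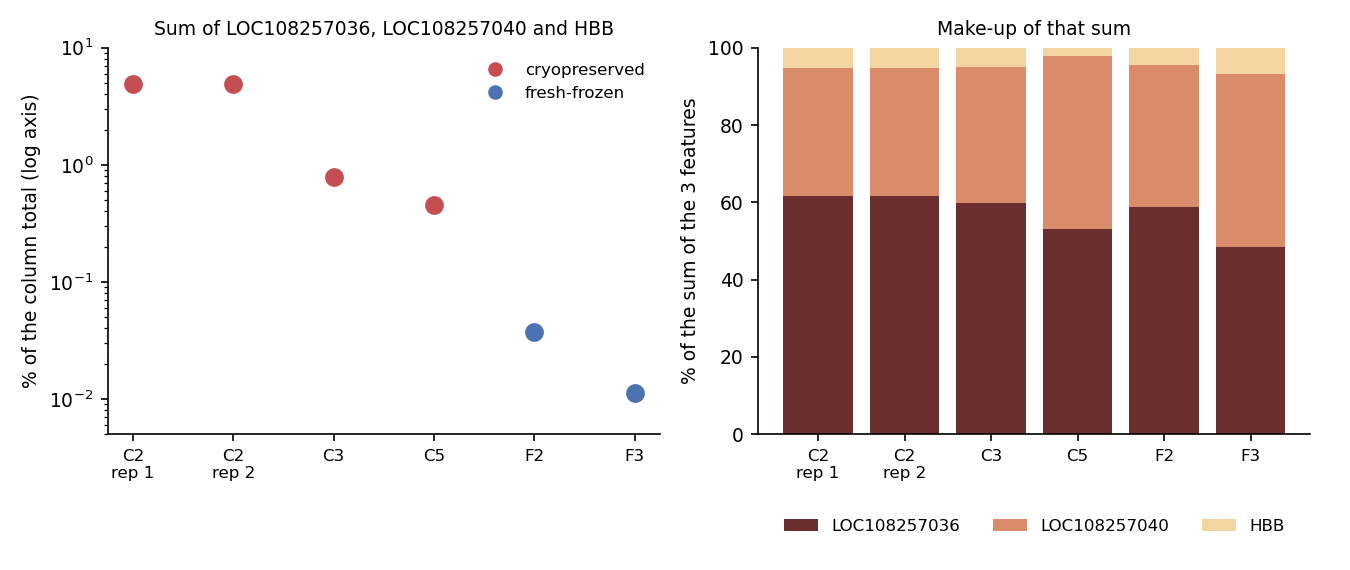
Left, the summed CPM of *LOC108257036*, *LOC108257040* and *HBB* as a percentage of the column total (log axis) in each library. Right, the percentage of that sum held by each feature, where C2, C3 and F2 resemble each other and C5 has the smallest part of *HBB*, 2.04%.

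The regulators and the heme enzyme had another order of samples. *alas2* (AUIFUG00000002878), which encodes the erythroid enzyme of the first step of heme synthesis, had 627 and 646 CPM in the replicates of C2, 214 CPM in C3 and 83.2 CPM in C5, against 127 CPM in F2 and 118 CPM in F3. C2 and C3 were above both fresh-frozen samples and C5 was below both. *gata1a* (AUIFUG00000013221), the erythroid and thrombocyte transcription factor, had 143 and 146 CPM in the replicates of C2, 47.9 CPM in C3 and 22.7 CPM in C5, against 28.1 CPM in F2 and 28.5 CPM in F3. *epor* (*EPOR*, AUIFUG00000006904), the receptor for erythropoietin, had 125 and 115 CPM in the replicates of C2, 22.9 CPM in C3 and 8.69 CPM in C5, against 20.8 CPM in F2 and 16.1 CPM in F3. Both showed the order of *alas2*, with C2 highest, C3 next and C5 below the fresh-frozen samples.

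The mean of *alas2* was 311 ± 289 CPM (SD, n = 3) in cryopreserved sperm and 122 ± 6.53 CPM (SD, n = 2) in fresh-frozen sperm. That of *gata1a* was 71.7 ± 64.3 CPM (SD, n = 3) in cryopreserved sperm and 28.3 ± 0.320 CPM (SD, n = 2) in fresh-frozen sperm. That of *epor* was 50.5 ± 60.5 CPM (SD, n = 3) in cryopreserved sperm and 18.4 ± 3.30 CPM (SD, n = 2) in fresh-frozen sperm. Each difference of means was smaller than the spread among cryopreserved samples. The differences of the group means were 0.88 for *alas2*, 0.92 for *gata1a* and 0.66 for *epor* on the log2(CPM + 1) scale. Most of each came from C2, since without it the differences were 0.13, 0.22 and -0.34, whereas without C5 they were 1.59, 1.53 and 1.48. In C2 these genes were 5.21-fold, 5.11-fold and 6.51-fold above the fresh-frozen mean in CPM, where *LOC108257036* was 223-fold above it. Between F2 and F3 they differed by 1.08-fold, 0.984-fold and 1.29-fold, which is less than the 2.26-fold to 4.08-fold of *LOC108257036*, *LOC108257040* and *HBB*. The CPM ratio of *alas2* to *LOC108257036* was 0.0211 for C2, 0.0458 for C3 and 0.0350 for C5, against 0.582 for F2 and 2.20 for F3. In C5, where the median of all features lay 1.93 below fresh-frozen sperm on the log2(CPM + 1) scale, *alas2* was 0.55 below, *gata1a* 0.31 below and *epor* 0.99 below. A value under both fresh-frozen samples was common in that library, at 75.7% of all features tested.

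All cryopreserved samples were above F2 and F3 in 3 of the 6 genes, where 13.6% of all features tested had this, and all were below in 0 of the 6 genes, where 41.7% had this. The genes were chosen for this contrast, so these counts carry no further information. Their median difference was 3.06, against -1.02 over all features tested. C2 was above both fresh-frozen samples in 6 of 6 genes and in 27% of all features. Among the cryopreserved samples, the order C2 above C3 above C5 was shared by 6 of 6 genes and by 18.4% of all features. That order was noticed in the values and is given as a description.

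Genes that act beside them were taken from lists of erythroid functions, and 105 features carried a listed name or a description as haemoglobin. The lists were chosen with earlier results of these data known, *klf17* among them. Counts in the lists are therefore a description and do not test them against all features. By limma with Benjamini-Hochberg adjustment over all features (absolute log2 fold change above 2 and FDR below 0.05), 1 of the 105 was upregulated and 0 were downregulated, where 1.54% of all features tested were upregulated and 0% were downregulated. At an unadjusted *p*-value below 0.05, 13 were higher and 12 were lower, against 6.89% and 11.3% of all features. With the male as a replicate block, 14 were upregulated and 1 was downregulated by limma, against 4.17% and 0.44% of all features. The 14 were *hemgn*, *cahz*, *klf17*, *HBZ*, *LDB1* (AUIFUG00000030381), *tfr2*, an unnamed globin, *cpox*, *epb41b*, *blvrb*, *KLF3*, *rhd*, *sptb* and *DMTN* (AUIFUG00000043866). The 1 was *HP*, which encodes haptoglobin, a plasma protein that binds free haemoglobin. A further *DMTN* feature (AUIFUG00000031185) and *ldb1b* (AUIFUG00000021664) had log2 fold changes of -1.34 and -3.00 in the fit without the block, with no call. Without C3, 14 of the 105 were upregulated and 23 downregulated, against 1840 and 6965 of all features. Without C5, 12 of the 105 and 846 of all features were upregulated, and without C2 both counts were 0. The block fit rests on males 2 and 3 and has 1 residual degree of freedom. Its prior degrees of freedom were infinite, so its variances come from the prior of limma alone and not from the spread of each gene.

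The upregulated feature was *tfr2* (AUIFUG00000003730), transferrin receptor 2, which is known from erythroid precursors and liver of mammals. It had 301 CPM in C2, 104 CPM in C3 and 331 CPM in C5, against 15.7 CPM in F2 and 14.2 CPM in F3. Here C5 and not C2 was highest, and limma with Benjamini-Hochberg adjustment put it 3.78 ± 0.72 higher in cryopreserved sperm (log2, standard error, FDR = 0.0250). The call was lost without C2 (FDR = 0.449 from limma), without F3 (FDR = 0.0571), with a pseudocount of 0.1, with a constant prior and with median centring, and the lowest FDR of the alternatives was 4.82e-06, with the male as a replicate block.

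Among the other globins, 0 of 8 features passed the threshold, where 1.54% of all features were upregulated and 0% downregulated. At an unadjusted *p*-value below 0.05 by limma, 2 were higher and 0 lower, against 6.89% and 11.3% of all features. *HBZ* (AUIFUG00000013596), described as an embryonic alpha-like haemoglobin subunit, had 37.6 CPM in C2, 8.52 CPM in C3 and 6.20 CPM in C5 and was listed at 0 in F2 and F3. An unnamed feature described as haemoglobin (AUIFUG00000034560) had 58.1 CPM in C2, 34.9 CPM in C3 and 8.69 CPM in C5, against 2.90 CPM in F2 and 5.64 CPM in F3. In both, C2 was highest, then C3 and C5, and the groups did not overlap, but the unnamed feature was higher in F3 than in F2, unlike *HBB*. *hbaa1*, named for an adult alpha globin of zebrafish, had F2 as its highest sample, with 8.56 CPM in C2, 6.82 CPM in C3 and 0.535 CPM in C5, against 19.0 CPM in F2 and 8.58 CPM in F3. *mb*, which encodes myoglobin of muscle, differed by 0.11 ± 1.06 (log2, standard error, FDR = 0.943 by limma). Globin genes resemble each other in sequence, so reads may have been divided among copies when they were counted. *HBZ* and *hbaa1* were chosen after their values were seen.

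Of 17 heme synthesis features, 0 passed the threshold, where 1.54% of all features were upregulated and 0% downregulated. At an unadjusted *p*-value below 0.05 by limma, 1 was higher and 1 lower, against 6.89% and 11.3% of all features. The median difference of the list was -0.69, against -1.02 over all features. *cpox*, coproporphyrinogen oxidase, had 51.7 CPM in C2, 20.6 CPM in C3 and 29.8 CPM in C5, against 2.91 CPM in F2 and 3.03 CPM in F3, with a log2 fold change of 3.04 (FDR = 0.192 from limma). *abcb10*, a mitochondrial transporter that erythroid cells need for heme synthesis, had 46.6 CPM in C2, 94.4 CPM in C3 and 2.70 CPM in C5, against 167 CPM in F2 and 146 CPM in F3 (log2 fold change -2.62, FDR = 0.265 from limma). Some genes of the pathway thus lay above and others below fresh-frozen sperm without passing the test. Among the 19 features of iron uptake, iron storage and heme breakdown, only *tfr2* passed, where 1.54% of all features were upregulated. At an unadjusted *p*-value below 0.05 by limma, 2 of the 19 were higher and 3 lower, against 6.89% and 11.3% of all features. *ncoa4*, the receptor that sends ferritin to autophagy, and *tfr1a* (AUIFUG00000011340), the receptor for transferrin, had log2 fold changes of -0.24 and 0.33 (FDR = 0.732 for both from limma). The heme breakdown enzyme *hmox1* had 6.10 CPM in C2, 14.1 CPM in C3 and 0.208 CPM in C5, against 43.7 CPM in F2 and 31.3 CPM in F3. Another heme oxygenase, *hmox2*, lay the other way, with 19.5 CPM in C2, 10.0 CPM in C3 and 20.7 CPM in C5. Its values were 2.90 CPM in F2 and 7.53 CPM in F3. *blvrb*, which reduces biliverdin and is abundant in mammalian red cells, was also higher in cryopreserved sperm. It had 356 CPM in C2, 162 CPM in C3 and 49.9 CPM in C5, against 35.3 CPM in F2 and 27.3 CPM in F3.

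The red cell membrane, skeleton and enzyme list held 28 features. Of these, 0 passed the threshold, where 1.54% of all features were upregulated and 0% downregulated. At an unadjusted *p*-value below 0.05 by limma, 3 were higher and 0 lower, against 6.89% and 11.3% of all features. *cahz*, the carbonic anhydrase of zebrafish red cells, had 564 CPM in C2, 175 CPM in C3 and 63.5 CPM in C5, against 10.2 CPM in F2 and 11.4 CPM in F3. By limma with Benjamini-Hochberg adjustment *cahz* had a difference of 3.98 ± 0.90 (log2, standard error, FDR = 0.0524), which missed the threshold. Over the alternatives its FDR lay between 6.51e-10, with the male as a replicate block, and 0.449, without C2. The variance behind the FDR of the block fit came from the prior alone. *ank1a*, erythrocyte ankyrin, which ties the membrane to the spectrin skeleton, had 1325 CPM in C2, 325 CPM in C3 and 120 CPM in C5, against 174 CPM in F2 and 165 CPM in F3. This is the pattern of *alas2*, with C5 below fresh-frozen sperm, and the log2 fold change was 1.13 (FDR = 0.337 from limma). *sptb*, erythrocyte beta spectrin, had 391 CPM in C2, 53.3 CPM in C3 and 48.4 CPM in C5, against 19.7 CPM in F2 and 21.3 CPM in F3. *rhd*, a Rh family protein, had 96.3 CPM in C2, 35.0 CPM in C3 and 9.02 CPM in C5, against 6.92 CPM in F2 and 7.71 CPM in F3. *slc4a1*, the name under which the table has a band 3 anion exchanger, had 38.5 CPM in C2, 8.52 CPM in C3 and 3.53 CPM in C5, against 10.2 CPM in F2 and 8.62 CPM in F3. Other features of the list lay on the other side, such as *epb41a*, a protein 4.1 of the membrane skeleton, with 26.5 CPM in C2, 38.5 CPM in C3 and 9.04 CPM in C5, against 78.7 CPM in F2 and 75.0 CPM in F3. *epb41b* was instead higher in cryopreserved sperm, with 199 CPM in C2, 67.6 CPM in C3 and 26.5 CPM in C5. It had 15.3 CPM in F2 and 11.7 CPM in F3. *rhag* (AUIFUG00000021992), the Rh-associated glycoprotein, had 8.55 CPM in C2, 6.08 CPM in C3 and 0.535 CPM in C5, against 11.7 CPM in F2 and 15.4 CPM in F3. A further feature named *RHAG* (AUIFUG00000012228) overlapped, with 1.06 CPM in C2, 9.92 CPM in C3 and 0.0506 CPM in C5. Its values were 5.84 CPM in F2 and 2.51 CPM in F3. Over the list, 6 features had all cryopreserved samples above F2 and F3 and 6 had all below (13.6% and 41.7% of all features tested), and the median difference was -0.03. In 17 of the 28 features C2 was above C3 and C3 above C5, where 18.4% of all features tested had this order. It was seen in 5 of 8 other globins, 4 of 17 heme synthesis features, 5 of 19 iron and heme breakdown features, and 9 of 33 transcription factor and signalling features. The order was not particular to these lists, with 40 of 105 features here and 20 of 66 markers of other cells without sperm. Among those markers it held in 4 of 7 thrombocyte, 4 of 7 liver, 4 of 8 Sertoli and Leydig and 4 of 11 lymphocyte features. Endothelium had it in 3 of 21 features, granulocytes and macrophages in 1 of 12. *sptb*, *rhd*, *slc4a1*, *epb41a*, *epb41b*, *rhag* and *RHAG*, like *cpox*, *hmox1*, *hmox2* and *blvrb* before them, were chosen after their values were seen.

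Of 33 features of transcription factors and signalling genes, 0 passed the threshold, where 1.54% of all features were upregulated and 0% downregulated. At an unadjusted *p*-value below 0.05, 5 were higher and 8 lower, against 6.89% and 11.3% of all features, and the median difference was -1.38, against -1.02. *hemgn*, hemogen, a nuclear protein of erythroid cells, had 388 CPM in C2, 118 CPM in C3 and 20.7 CPM in C5, against 8.75 CPM in F2 and 5.09 CPM in F3 (log2 fold change 3.70 ± 1.11, standard error, FDR = 0.179 by limma). *klf17*, a Krüppel-like factor known from the blood islands of zebrafish embryos, had 324 CPM in C2, 88.9 CPM in C3 and 29.2 CPM in C5, against 8.76 CPM in F2 and 3.67 CPM in F3 (log2 fold change 3.83, FDR = 0.119 from limma). Both had no overlap between the groups and the sample order of *HBB*. *gfi1b*, a repressor needed in erythroid cells and thrombocytes, had 49.4 CPM in C2, 25.9 CPM in C3 and 5.19 CPM in C5, against 7.64 CPM in F2 and 12.6 CPM in F3. Some genes that erythroid cells share with blood progenitors lay on the other side. *MYB*, a transcription factor of progenitors, had 33.3 CPM in C2, 97.4 CPM in C3 and 6.86 CPM in C5, against 130 CPM in F2 and 155 CPM in F3. *kitb*, a stem cell factor receptor that germ cells also use, had 30.1 CPM in C2, 65.6 CPM in C3 and 8.19 CPM in C5, against 159.6 CPM in F2 and 98.6 CPM in F3. *trim33*, a cofactor of erythroid transcription with wide expression, had a log2 fold change of -1.64 (FDR = 0.265 from limma). *klf17*, *gfi1b*, *MYB* and *kitb* were chosen after their values were seen.

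**Figure D3:**
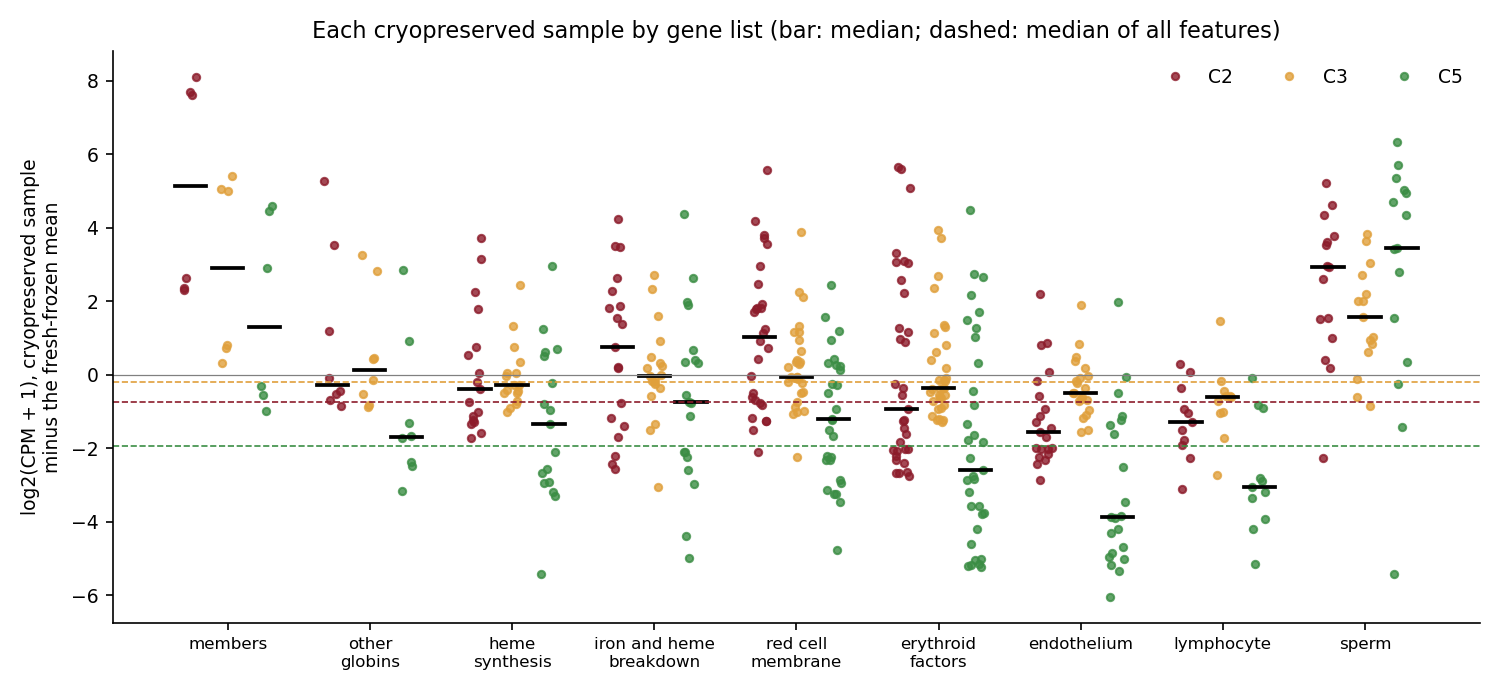
Difference of each feature in C2, C3 and C5 from the fresh-frozen mean on the log2(CPM + 1) scale, by gene list, with black bars at the median of a list and dashed lines at the median of all features in each sample (-0.74, -0.21 and -1.93). The 6 genes are highest in C2 and lowest in C5, with medians of 5.13, 2.90 and 1.31, while the sperm markers are highest in C5.

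Markers of other cells were set beside these values. The labelled tissue was checked with sperm markers, for which 15 features were found. All 15 were above 0 in each sample, but no feature at all is listed at 0 in C2 or C3, so detection there checks nothing. Their summed level was lower in F2 and F3 than in any cryopreserved sample. The sum was 5560 CPM in C2, 2763 CPM in C3 and 10825 CPM in C5, against 647 CPM in F2 and 622 CPM in F3. In 12 of the 15 the groups did not overlap and cryopreserved sperm was higher, where 13.6% of all features had this, and 4 were upregulated by limma, against 1.54%. Among them was *tekt1*, a protein of the flagellar microtubules, with a difference of 4.66 ± 0.49 (log2, standard error, FDR = 0.00399 by limma with Benjamini-Hochberg adjustment). Its call was lost without C2, with TMM rescaling, with a constant prior and with median centring, and its FDR reached 0.188. Like *HBB*, the summed sperm markers were above F2 and F3 in C2, C3 and C5, but in another order. The order C5 above C2 above C3 was seen in 11 of 15 sperm markers and in 0 of the 6 genes, where 10.9% of all features had that order.

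The 21 endothelial features summed to 354 CPM in C2, 1005 CPM in C3 and 64.4 CPM in C5, against 1478 CPM in F2 and 1299 CPM in F3, and *stab1* had 69.4 CPM in C2, 181 CPM in C3 and 4.37 CPM in C5, against 414 CPM in F2 and 300.3 CPM in F3. The 11 lymphocyte features summed to between 34.8 and 168 CPM in cryopreserved sperm and to 302 and 275 CPM in fresh-frozen sperm. The 12 granulocyte and macrophage features summed to between 289 and 431 CPM in cryopreserved sperm and to 477 and 422 CPM in fresh-frozen sperm. Endothelial and lymphocyte sums were thus lower in C2, C3 and C5 than in F2 and F3, while granulocyte and macrophage sums overlapped. That overlap came from *lcp1*, an actin-bundling protein of white blood cells, which had 142 CPM in C2, 107 CPM in C3 and 312 CPM in C5, against 52.5 CPM in F2 and 37.4 CPM in F3. Without *lcp1*, left out after its values were seen, the other 11 features summed to 147 CPM in C2, 324 CPM in C3 and 41.7 CPM in C5, against 424 CPM in F2 and 384 CPM in F3. The 7 thrombocyte features, which share *gata1a* with red cells, summed to between 17.0 and 141 CPM in cryopreserved sperm and to 78.6 and 122 CPM in fresh-frozen sperm. Thrombocyte markers were split, as *gp9*, chosen after its values were seen, had 47.7 CPM in C2, 7.78 CPM in C3 and 6.36 CPM in C5, against 1.81 CPM in F2 and 2.82 CPM in F3, while *FLI1* had 9.66 CPM in C2, 38.9 CPM in C3 and 2.19 CPM in C5, against 31.0 CPM in F2 and 42.8 CPM in F3. Of these 51 blood and vessel features, 0 were called in either direction by limma, where 1.54% of all features were upregulated and 0% downregulated. At an unadjusted *p*-value below 0.05 by limma, 1 was higher and 8 lower, against 6.89% and 11.3% of all features. The 7 liver plasma protein features summed to between 4.95 and 74.4 CPM in cryopreserved sperm, against 106 and 104 CPM in fresh-frozen sperm. The 8 Sertoli and Leydig cell features summed to between 17.3 and 88.0 CPM in cryopreserved sperm, against 103 and 91.8 CPM in fresh-frozen sperm. In C5, 5 features of these lists were listed at 0. The part of any of these cell types in the values of the 6 genes was not tested.

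The features whose profile was most like that of the summed *LOC108257036*, *LOC108257040* and *HBB* were sought among features that averaged above 10 CPM, 15936 in all, with the 6 genes left out. Likeness was the root mean square difference of log2(CPM + 1) values after centring each profile on its mean over the 5 samples. The closest was *MR1* (AUIFUG00000044201), described as like a major histocompatibility complex class I-related protein, at 0.57. It had 348 CPM in C2, 48.7 CPM in C3 and 56.9 CPM in C5, against 5.86 CPM in F2 and 0.380 CPM in F3. *GPX1*, glutathione peroxidase, followed at 0.74, *b2m*, beta-2 microglobulin of the class I complex, at 0.80, *hist2h2l*, named as a histone, at 0.88 and *rsrp1* at 0.89. *b2m* had 3115 CPM in C2, 761 CPM in C3 and 271 CPM in C5, against 53.6 CPM in F2 and 28.7 CPM in F3. By the same measure *klf17* was at 1.07, *cahz* at 1.15 and *hemgn* at 1.23, so the erythroid genes on the lists were not the closest. The measure counts the size of a change as well as the order of samples. *klf17*, *cahz* and *hemgn* had the sum's order of cryopreserved samples, as did *GPX1*, *b2m* and *hist2h2l*. In *MR1* and *rsrp1* C5 was above C3.

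**Figure D4:**
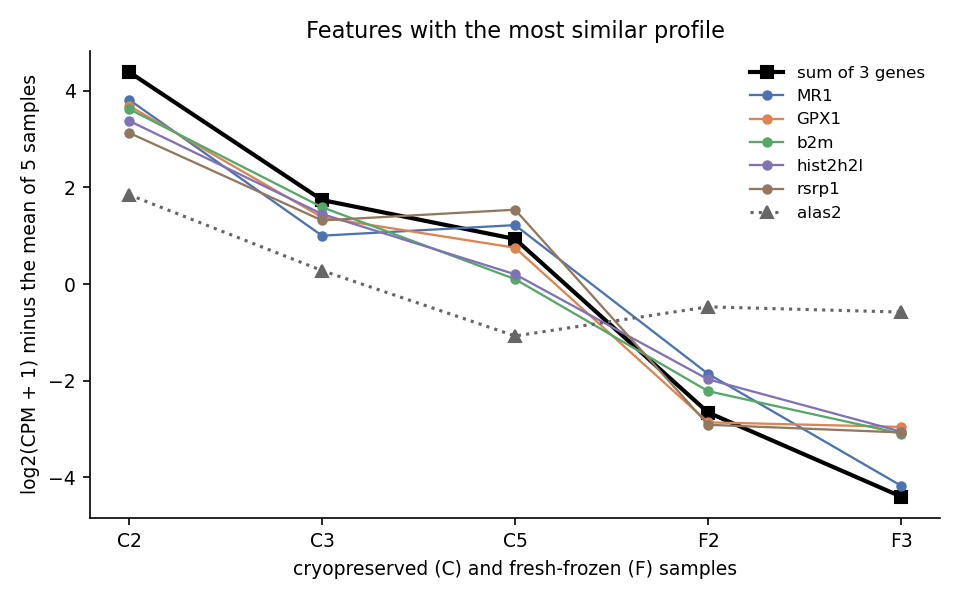
Profiles over the 5 samples on the log2(CPM + 1) scale, each centred on its own mean, for the sum of *LOC108257036*, *LOC108257040* and *HBB* (black squares), the 5 features closest to it and *alas2* (dotted). The 5 features are, like the sum, highest in C2 and lowest in fresh-frozen sperm, which follows from how they were picked. The line of *alas2* is lowest in C5.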

How the data were processed

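Per the labels and the methods, the authors used Trimmomatic 0.39 for trimming, TopHat2 2.1.1 for mapping to a blue catfish genome (build not given in the sources used here), HTSeq 1.0 for counting and edgeR. The deposited sample values are called RPKM but were treated as CPM, since each column sums to between 992942 and 997458. The authors also deposited each feature's average log2 CPM, which served as a check of the unit. Low values (0.1 to 2 CPM) lay at whole multiples of 1 step, 0.362 CPM, in F2 only (100.0%, within 0.1 of a step). In the other columns 29.6% to 42.7% did, where 20% is the share by chance. Whole reads were thus not recovered there and no count test was run. The paper lists filtered reads and mapping rates for each sample, but the reads counted on features are not given. In F2, 29 features are written as 2.25e-17 and were read as 0. The same value occurs in F3, where it was read as 0 but not counted. A feature's name was its Ensembl name, or its eggNOG name where it had none.

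limma 3.58.1 in R 4.3.3 was fitted with a trended prior to log2(CPM + 1) values of the 5 samples, over the 27255 features whose mean exceeded 1 CPM in cryopreserved or fresh-frozen sperm. This scale understates the change of low features. TMM factors were computed from the deposited CPM values. P-values of this fit rest on 3 cryopreserved and 2 fresh-frozen samples. The variance of each feature joined its own spread among them, with 3 residual degrees of freedom, to the prior, with 8.59. Most of its weight thus came from the prior over all features. Males 2 and 3 gave both kinds of sample, and only the fit with the replicate block uses this pairing. The genes and lists were chosen with earlier results of these data known, *klf17* among them. Named were the 6 genes, for each list the features called and the 2 with the highest mean, 1 marker for each cell type and the 5 most alike features. A gene that this rule names is not reported here. Others are said to be chosen after their values were seen. The numbers pair the samples because they are the IDs of the males. The deviations of same-numbered samples from their group means had a correlation of 0.0206 in male 2 and -0.0330 in male 3. Alternatives covered the pseudocount, the filter, the scaling, the prior, the replicate block, single technical replicates of C2 and each sample left out. Sequences and coordinates are not used here.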

Additional observations from a re-analysis of the deposited data

How the results depend on the processing

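Fold changes of the 6 genes kept their sign in the alternatives run, with the exception of *epor*, at -0.34 without C2 and at most 1.48 with another sample left out. With 1 sample left out, the difference lay between 4.93 and 7.00 for *LOC108257036*, 4.82 and 6.47 for *LOC108257040*, 3.96 and 6.35 for *HBB*, 0.13 and 1.59 for *alas2* and 0.22 and 1.53 for *gata1a*. TMM rescaling gave 7.18, 6.93, 6.32, 2.06 and 2.07 for these genes and 1.78 for *epor*, and quantile normalization 4.63, 4.80, 5.75, 0.94, 1.72 and 1.62. With the male as a replicate block the median of the 6 genes was 3.96, in place of 3.06.

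Counts moved more. The 421 upregulated features became 1136 with the replicate block, 1410 with quantile normalization, 670 with a pseudocount of 5, 156 with one of 0.1, and 0 with median centring or a constant prior, and 0 to 1840 with 1 sample left out (0 without C2, 1840 without C3). For downregulated features, 0 became 120 with the replicate block, 100 with quantile normalization, 4 with a pseudocount of 5, 2 and 1 with the first or second technical replicate of C2 alone, and 0 to 6965 with 1 sample left out. In the erythroid lists, 1 upregulated feature became 14 with the replicate block, 12 with quantile normalization, 8 with TMM rescaling, 4 with a pseudocount of 5, and 0 with a pseudocount of 0.1, median centring or a constant prior, and 0 to 14 with 1 sample left out. Downregulated ones were 1 with the replicate block, 1 with the second technical replicate of C2 alone, and 0 to 23 with 1 sample left out (23 without C3). Other cell type markers had 2 upregulated with the replicate block, 1 with quantile normalization and 0 to 1 with 1 sample left out. The causes were not tested. The block counts rest on 1 residual degree of freedom and on variances from the prior alone. The fits without F2 and without F3 also took their variances from the prior alone. Counting error was not assessed, as whole reads were not recovered in the columns other than F2.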
